A study of Homo sapiens with 16 samples.

Results

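Cells that carry the first of 3 PRMT1 short hairpin RNAs, shPRMT1 #1, were compared with cells that carry the other hairpins, shPRMT1 #3 and shPRMT1 #5. The cells are SK-OV-3, a human ovarian carcinoma cell line known to lack p53. The 4 libraries of shPRMT1 #1 (labelled B6) are 4 of the 16 libraries of the series, and the 8 libraries they were set against are those of #3 (B8) and #5 (B10). All 12 carry a hairpin against PRMT1, so the comparison asks what differs between knockdown cells, not what knockdown itself does. Each hairpin has 2 untreated libraries and 2 libraries of cells given 20 µM cisplatin for 24 h, called replicates 1 and 2. The remaining 4 libraries are shScramble control cells under the same treatments. They took no part in the tests and are printed for reference only. Each hairpin stands for 1 cell population, so an effect of the hairpin's sequence and a property of that population cannot be told apart. The submitters call the replicates biological, but the sources used here do not say how the cultures were kept apart, so p-values measure the spread between these libraries.

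PRMT1 makes most of the asymmetric dimethylarginine of mammalian cells, on histones and on many RNA-binding and DNA repair proteins. A short hairpin RNA is cut by the cell into a small interfering RNA, which guides Argonaute proteins to matching transcripts and lowers their level. Hairpins of different sequence against 1 gene share the intended target, while transcripts that match only in part can differ from hairpin to hairpin. No label or file used here holds the hairpin sequences, so none is printed.

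The knockdown itself was read first. PRMT1 stood at 4.60 and 7.76 RPKM (a read count divided by the length of the gene model and by library size) in untreated #1 cells and at 4.12 and 6.47 RPKM with cisplatin. The #3 and #5 libraries ran from 4.13 to 10.4 RPKM with a median of 5.98, and shScramble averaged 20.3 ± 2.41 RPKM (SD, n = 4). All 12 knockdown libraries thus lay below the lowest shScramble library, at 17.8 RPKM, and the #1 libraries overlapped the others. The log2 difference between #1 and the mean of #3 and #5 was -0.13 ± 0.11 (SE), with a limma adjusted p of 0.388. PRMT1 was lower in #1 than in #5 (log2 difference -0.49, adjusted p = 0.0114), while against #3 the difference of 0.23 did not pass (adjusted p = 0.211).

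The library totals by which the RPKM values were scaled ran from 12289319 to 16039782 reads, and those of #1 from 13198751 to 16039782. Abundant genes were compressed in every library. The highest value was 115 to 148 RPKM, no gene exceeded 1.84 reads per base of its model, and mitochondrial genes held 0.121% to 0.160% of reads, so differences of strongly expressed genes may be understated. All 10 carcinoma markers matched were present in the knockdown libraries, summing to 159 to 235 RPKM in #1 and 180 to 257 RPKM in the others. Of 8 fibroblast markers 4 exceeded 1 RPKM somewhere, with sums of 19.9 to 55.0 RPKM in #1 and 20.9 to 64.4 RPKM elsewhere. Of 12 leukocyte markers 2 did so (1.11 to 4.04 against 0.966 to 6.51 RPKM), and of 7 endothelial markers 1 (0.530 to 1.18 against 0.368 to 1.94 RPKM). No marker on any of these lists was at 0 in all 12 libraries. In such bulk samples, fewer cells that express a gene and less RNA per cell cannot be told apart.

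Of 17773 genes tested, 2317 (13%) were higher and 2676 (15.1%) lower in #1 than in the mean of #3 and #5 at an adjusted p under 0.05 (limma on log2(RPKM + 1), Benjamini-Hochberg over all genes, with treatment and replicate as terms). The excess of lower genes turned under other scalings, with 2717 higher and 2291 lower under TMM scaling, 2620 and 2446 under median-ratio scaling and 3091 and 2781 after GC correction. A difference from the mean can come from #3 or #5 alone. A gene was therefore called apart in #1 only when it differed from the mean, from #3 and from #5, all in 1 direction and each at that threshold. This left 747 genes (4.2%) higher and 1132 (6.37%) lower. Without the replicate term the counts were 339 and 578, and all 917 of these genes were among the 1879 of the fit with it. Without untreated replicate 1 of #1 they were 449 and 717, and without untreated replicate 2 of #1 the higher count was 453. Most differences were small, since 174 of the higher (0.979% of genes tested) and 350 of the lower genes (1.97%) reached 1.5-fold, and 20 (0.113%) and 41 (0.231%) reached 2-fold. The same rule found 1664 genes (9.36%) apart in #3 and 2684 (15.1%) in #5, against 1879 (10.6%) in #1. The median gene of all tested lay at -0.03 on the log2 scale in #1.

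Among genes apart and higher in #1 with a proper symbol and a mean of at least 5 RPKM in #1, the 14 largest differences were those of NOV, TMCC3, THBD, ESM1, LINC00443, KIAA1644, EPT1, ECSCR, GRB10, AFAP1L2, MDFIC, GCNT2, CTDSPL and CNIH3, with log2 differences of 0.90 to 1.45. The naming rule itself required that #1 not overlap the other hairpins within either treatment, so that separation is no finding. Over all genes, 668 (3.76%) lay above and 1032 (5.81%) below the other hairpins in this way.

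NOV, a secreted matricellular protein of the CCN family encoded on chromosome 8 (120428545 to 120436593), stood at 34.6 and 36.2 RPKM untreated and at 38.1 and 35.5 RPKM with cisplatin in #1. The other hairpins ran from 7.22 to 20.0 RPKM with a median of 13.8. All 4 #1 libraries lay above all 8 others, and #5 was the lowest line. The mean was 2.71-fold higher (log2 difference 1.45 ± 0.10 SE, adjusted p = 8.08e-06), and shScramble averaged 36.8 RPKM, beside #1. THBD, the thrombin-binding surface receptor thrombomodulin (chromosome 20, 23026269 to 23030378), showed the same order of lines. Its #1 libraries held 24.2 and 31.4 RPKM untreated and 18.5 and 22.9 RPKM with cisplatin, while the others ran from 3.88 to 15.9 RPKM (median 9.06). The groups did not overlap, and the log2 difference was 1.44 ± 0.08 (adjusted p = 2.73e-06). Here #3 averaged 14.2 RPKM and #5 4.55 RPKM, so the distance from #5 was the larger. EPT1, the ethanolamine phosphotransferase of phosphatidylethanolamine synthesis, was also graded, with means of 30.3 RPKM in #1, 18.1 in #3, 8.98 in #5 and 26.0 in shScramble. GRB10, an adaptor that binds the insulin receptor, averaged 6.21 RPKM in #1, 3.44 in #3, 1.83 in #5 and 5.38 in shScramble.

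Others had #3 and #5 nearer to each other. TMCC3, a coiled-coil protein of the endoplasmic reticulum membrane (chromosome 12, 94960899 to 95044338), stood at 6.08, 6.10, 9.76 and 8.75 RPKM in #1 and at 1.31 to 3.38 RPKM in the others (median 1.93). No #1 library reached down to the others, and the log2 difference was 1.45 ± 0.08 (adjusted p = 3.35e-06). Means were 2.51 RPKM in #3 and 1.86 in #5 against 5.61 in shScramble. AFAP1L2, an adaptor of actin filaments, averaged 9.84 RPKM against 4.02 in #3 and 4.89 in #5. MDFIC, a regulator of transcription factors, averaged 9.43 RPKM against 4.03 and 4.51. MDFIC was the one of these with shScramble above #1, at 12.6 RPKM.

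ESM1, the secreted proteoglycan endocan, and LINC00443, a long non-coding RNA, read higher with cisplatin than without in each hairpin line. ESM1 held 1.89 and 1.20 RPKM in untreated #1 libraries but 22.9 and 17.2 RPKM with cisplatin, against 0.135 to 7.93 RPKM elsewhere. Its #1 libraries lay above the others within each treatment but overlapped them across treatments. GCNT2, a glycosyltransferase that branches the I blood group antigen, averaged 11.2 RPKM against 5.36. CTDSPL, a phosphatase of RNA polymerase II and other proteins, averaged 12.8 against 6.23 RPKM. CNIH3, which assists glutamate receptors in neurons, averaged 5.36 against 2.36 RPKM, and shScramble lay with #3 and #5 at 2.08 RPKM.

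Several of the genes lowest in #1 stood alone there, with #3, #5 and shScramble near each other. The 14 named were HIST1H3H, SLC35B4, CMTM4, NFIC, GBP1, MIR568, URM1, FAM69A, ANKEF1, CLU, NR2F6, PTPRS, BVES and DCK, with log2 differences of -1.37 to -1.09. SLC35B4, a nucleotide sugar transporter of the Golgi (chromosome 7, 133974083 to 134001803), stood at 2.86 and 2.67 RPKM untreated and at 4.17 and 3.92 RPKM with cisplatin in #1. The other hairpins ran from 8.76 to 11.6 RPKM with a median of 10.1. The highest #1 library was below every other library, and the log2 difference was -1.36 ± 0.10 (adjusted p = 8.40e-06). Means were 10.1 RPKM in #3, 10.3 in #5 and 10.1 in shScramble.

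URM1, a ubiquitin-like protein needed to thiolate transfer RNAs (chromosome 9, 131133597 to 131153015), had the same form. Its #1 libraries held 9.45, 9.70, 7.75 and 10.5 RPKM, and the others 22.1 to 27.4 RPKM (median 23.5), without overlap. The level was 2.60-fold lower in #1 (log2 difference -1.29 ± 0.06, adjusted p = 1.57e-06), and shScramble averaged 24.1 RPKM. CMTM4, a membrane protein with a MARVEL domain (chromosome 16, 66648652 to 66730610), read lower with cisplatin than without in each hairpin line. It stood at 8.85 and 8.20 RPKM untreated and 5.82 and 6.01 RPKM with cisplatin in #1, and at 12.6 to 28.2 RPKM (median 19.9) in the others. No #1 library overlapped them, and the adjusted p of 4.94e-07 (log2 difference -1.34 ± 0.05) was the smallest of any gene. DCK, the deoxycytidine kinase that starts the salvage of deoxynucleosides and activates nucleoside drugs (chromosome 4, 71858254 to 71896631), stood at 11.2 and 9.43 RPKM untreated and 19.9 and 13.4 RPKM with cisplatin. The others ran from 20.3 to 36.2 RPKM (median 29.4), above every #1 library, and shScramble averaged 30.8 RPKM. The log2 difference of DCK was -1.09 ± 0.06 (adjusted p = 3.35e-06). The counting was not stated to use strand and the kit does not mark it, so reads from MOB1B, which overlaps the DCK gene model on the same strand, could also enter. The models of CNIH3 and GCNT2 each overlap a tested gene on the other strand, and that of PRMT1 overlaps ADM5.

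GBP1, an interferon-induced GTPase, did not share the position of shScramble. Its #1 libraries held 1.89, 1.77, 2.29 and 1.58 RPKM, below #3 (mean 4.37 RPKM) and #5 (mean 8.61 RPKM), while shScramble averaged 2.72 RPKM. ANKEF1, a protein with ankyrin repeats and EF hands, averaged 3.29 RPKM against 8.98 in the other hairpins and 4.45 in shScramble. CLU, the secreted chaperone clusterin, stood at 4.11 and 4.42 RPKM untreated and 10.2 and 12.7 RPKM with cisplatin, under the lowest other value of 13.4 RPKM. BVES, a membrane protein that binds cyclic AMP, averaged 4.65 against 10.98 RPKM, and FAM69A, a kinase-like protein of the endoplasmic reticulum, 2.95 against 9.15 RPKM.

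For several of the lower genes the 2 replicates of #1 were far apart. NFIC, a transcription factor of the nuclear factor I family, held 3.06 and 1.35 RPKM in the replicate 1 libraries and 5.70 and 3.68 RPKM in those of replicate 2. NR2F6, an orphan nuclear receptor, and PTPRS, a receptor tyrosine phosphatase, were likewise lower in replicate 1 of each treatment. In both treatments of #3 and of #5, replicate 1 was also the lower for NFIC, NR2F6 and PTPRS. Their differences were called after correction for transcript GC content, at -1.21 for NFIC, -0.89 for NR2F6 and -0.95 for PTPRS. HIST1H3H, a replication-dependent histone H3 gene whose transcript normally lacks a poly(A) tail, rested on 7 to 62 reads in #1 and 26 to 154 in the others, and its #1 libraries held 1.11 and 5.13 RPKM in replicate 1 and 3.16 and 9.59 RPKM in replicate 2. MIR568, a microRNA gene, rested on 1 to 7 reads against 3 to 24, too few for a firm level.

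**Figure D1:**
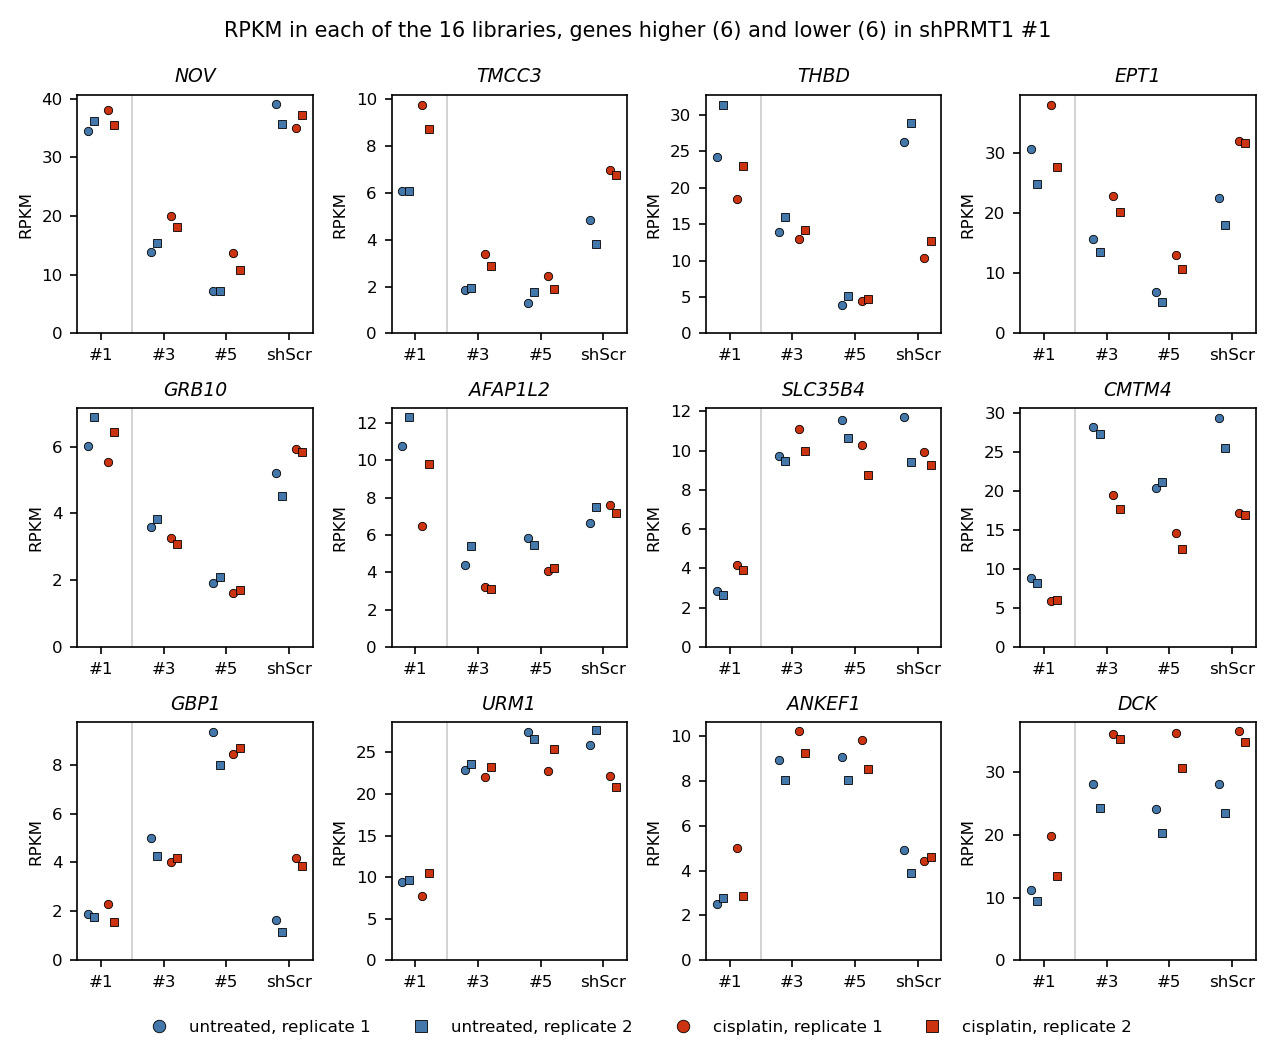
RPKM (y axis, from 0) of 6 genes higher and 6 lower in shPRMT1 #1, by line (x axis, shScr for shScramble), with each point 1 library. SLC35B4 and URM1 show #1 alone below all other lines, whereas NOV and TMCC3 show #1 and shScramble above #3 and #5.

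The place of shScramble differed between the directions. Among the 14 named higher genes shScramble lay nearer to #1 for 12, and among the 14 named lower genes it lay nearer to the mean of #3 and #5 for 11. Over all genes apart, it was nearer to #1 for 53.7% of the 747 higher genes and nearer to #3 and #5 for 62.4% of the 1132 lower genes. Over all genes tested these shares were 47.3% and 52.7%. These are descriptions without a test, since the control libraries were outside the contrast.

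**Figure D2:**
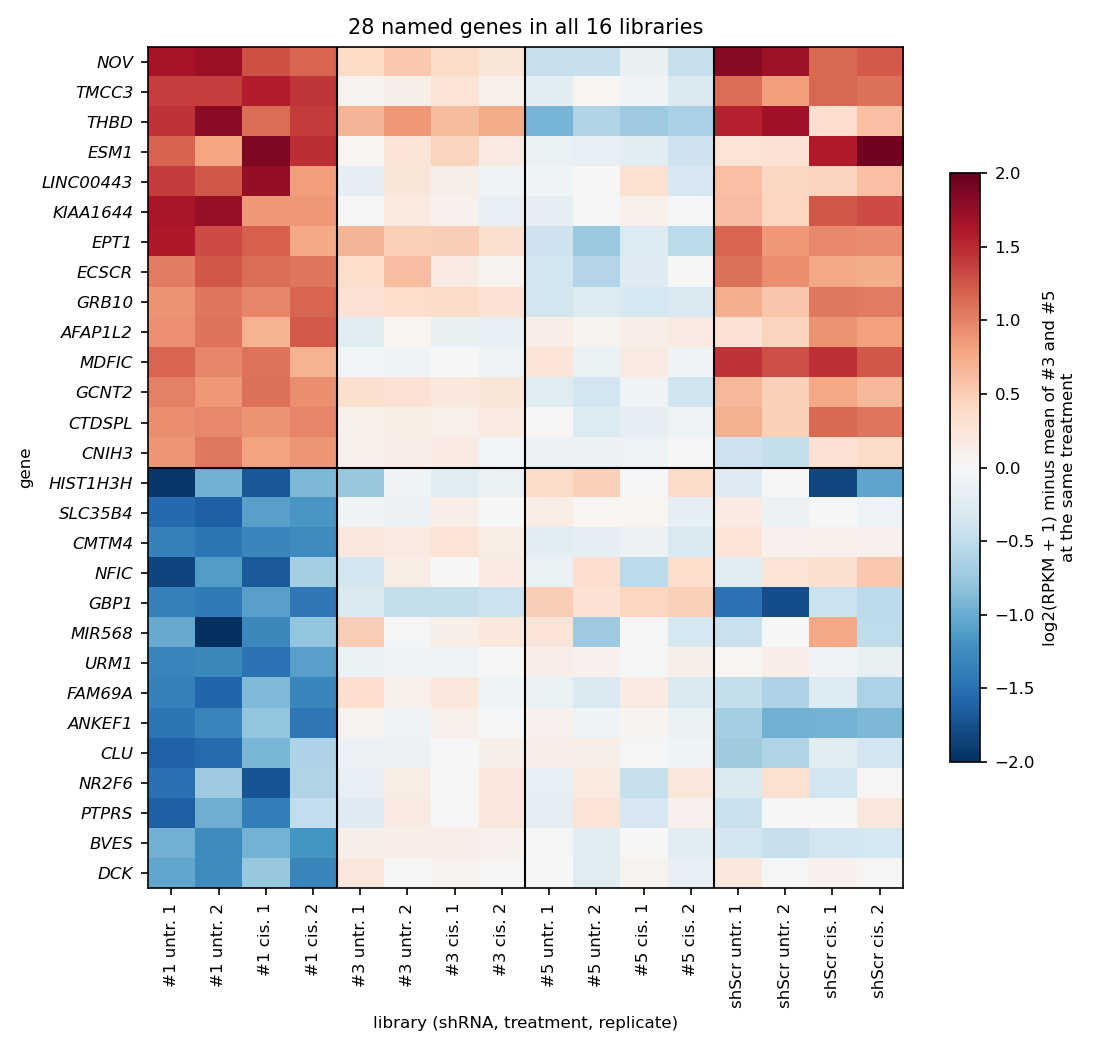
Difference of log2(RPKM + 1) from the mean of the #3 and #5 libraries at the same treatment (colour) for 28 named genes (rows) in 16 libraries (columns). The shScramble columns are red for most of the 14 higher genes and near white for many of the 14 lower genes.

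Several genes of the extracellular matrix were lower in #1. Of 35 tested genes of collagens, laminins and matrix, 8 (22.9%) were apart and lower and 3 (8.57%) higher, beside 6.37% and 4.2% of all genes. The same shares of all genes stand beside the genes apart in every list below. The median log2 difference of the matrix list was -0.20, and with no replicate term 2 of its genes were lower and 2 higher. Without that term the counts over all genes fell too, from 747 higher and 1132 lower to 339 and 578. After GC correction they rose to 1117 and 1310. Counts of the lists below under these fits are to be read beside these totals. NID2, the basement membrane protein nidogen, stood at 23.2 and 25.6 RPKM untreated and 15.8 and 16.5 RPKM with cisplatin in #1. The others ran from 25.1 to 38.5 RPKM, above #1 within each treatment, and the log2 difference was -0.61 ± 0.04 (adjusted p = 4.96e-06). COL4A1, a collagen of basement membranes, averaged 35.4 RPKM against 52.4 in #3 and 47.8 in #5. COL1A2, COL5A1, COL6A1, LAMB2, FBLN1 and HSPG2 were the other lower members. HSPG2, the proteoglycan perlecan, ranged from 1.36 to 23.3 RPKM within #1, low in replicate 1. LAMA3, a laminin chain, and TGFBI, a matrix protein induced by TGF-beta, were among the higher members. TGFBI averaged 25.9 RPKM in #1 (log2 difference 0.35 ± 0.05, adjusted p = 0.000433).

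Targets of YAP and TEAD, the transcription factors that respond to cell contact and tension, showed a like split. Of 19 tested, 5 (26.3%) were apart and lower, namely AMOTL2, CYR61, CTGF, CRIM1 and NUAK2, and NT5E was higher. The median was -0.09, and 3 were lower without the replicate term. AMOTL2, a scaffold that itself binds YAP, averaged 21.6 ± 7.91 RPKM in #1 against 35.5 in #3 and 34.9 in #5 (log2 difference -0.72 ± 0.07, adjusted p = 6.22e-05), with some overlap under cisplatin. CYR61, a matricellular relative of NOV, averaged 38.4 RPKM against 50.9 and 51.6 (log2 difference -0.42, adjusted p = 8.78e-05). CTGF, another member of that family, averaged 33.9 against 39.5 and 47.5 RPKM.

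In the TGF-beta family, ligands and 1 receptor were lower and another receptor was higher. The ligand TGFB2 averaged 5.53 RPKM in #1 against 10.3 in #3, 11.8 in #5 and 12.3 in shScramble (log2 difference -0.90 ± 0.09, adjusted p = 8.71e-05). The ligands TGFB3 and BMP4 and the type I receptor TGFBR1 were also lower. The type II receptor TGFBR2 was higher, at 65.5 and 61.9 RPKM untreated and 54.1 and 50.03 RPKM with cisplatin. The other hairpins held 24.8 to 53.5 RPKM, with #3 at a mean of 50.1 and #5 at 28.3, so most of that difference was from #5 (log2 1.00, against 0.20 from #3). In all, 4 of 22 members (18.2%) were lower and 1 higher, with a median of -0.09. In the fit lacking the replicate term 2 were lower.

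Of 29 tested genes of the NRF2 and oxidative stress list, 6 (20.7%) were apart and lower and 0 higher, with a median of -0.09. Against the mean of #3 and #5, 4 of the 29 (13.8%) were higher, near the 13% of all genes. The 6 apart were GCLC, which makes glutathione's precursor, SLC7A11, the cystine importer, ABCC3, an efflux pump, the aldo-keto reductases AKR1B10 and AKR1C3, and OSGIN1. ABCC3 stood at 10.98 and 13.2 RPKM untreated and 5.54 and 8.63 RPKM with cisplatin in #1, against 9.001 to 19.5 RPKM in the others (log2 difference -0.52 ± 0.07, adjusted p = 0.000357). In the fit lacking the replicate term 2 members were apart. In the ATF4 and unfolded protein response list 5 of 32 (15.6%) were lower, among them DDIT4 and SHMT2, while EDEM1 and SEL1L, both parts of the degradation of misfolded proteins, were higher (2 of 32). That fit left 1 lower gene here.

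Several genes of lipid synthesis were higher in #1. Of 31 tested genes of cholesterol and fatty acid synthesis, 7 (22.6%) were apart and higher and 2 (6.45%) lower, with a median of 0.05. Omitting the replicate term left 4 higher genes. The higher members included HMGCS1, NSDHL and EBP, enzymes of the sterol pathway, STARD4, a sterol carrier, ACACA, which makes malonyl-CoA, and SCD, the stearoyl-CoA desaturase. SCD held 39.0 and 36.0 RPKM untreated and 31.6 and 29.4 RPKM with cisplatin in #1, and 19.7 to 28.5 RPKM in the others. The groups did not overlap, and the log2 difference was 0.45 ± 0.05 (adjusted p = 0.000136). FADS1, a fatty acid desaturase, and ELOVL6, an elongase, were lower. HK2, a hexokinase of glycolysis, was the 1 gene of 31 in the glycolysis and hypoxia list that stood apart. That share of 3.23% was under the 4.2% of all genes. HK2 held 14.3, 16.3, 18.0 and 20.6 RPKM against 6.64 to 12.4 RPKM (log2 difference 0.80 ± 0.05, adjusted p = 5.63e-06).

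Several genes of DNA replication and repair were higher in #1. In the DNA damage response and repair list 16 of 47 were higher and 4 lower against the mean of #3 and #5, beside 13% and 15.1% of all genes, with a median of 0.09. Of the list, 4 (8.51%) were apart and higher, among them XRCC4, ATR and FANCI, and 1 (2.13%) lower, BRCA1. After GC correction 7 were higher and 2 lower, and without the replicate term 2 and 0. XRCC4, the partner of DNA ligase IV in end joining, averaged 21.9 RPKM against 13.7 and 14.1 (log2 difference 0.64 ± 0.06, adjusted p = 5.48e-05). BRCA1 averaged 14.9 RPKM against 23.9 in #3, 18.4 in #5 and 28.5 in shScramble. Of 44 genes of S phase, 4 (9.09%) were apart and higher (POLA1, RFC3, TYMS and DTL) and 2 (4.55%) lower (GINS1 and RRM2). The median of the S phase list was 0.11, which was 0.24 untreated and -0.03 with cisplatin. Leaving out the replicate term gave 0 higher and 2 lower.

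Of 33 genes of G2 and mitosis, 2 (6.06%) were apart, both lower, a share near the 6.37% of all genes. KIF23, the kinesin of the cytokinetic midbody, stood at 18.9 and 16.1 RPKM untreated and 24.2 and 19.2 RPKM with cisplatin in #1. The others ran from 29.3 to 39.7 RPKM, without overlap, and shScramble averaged 34.8 RPKM. The log2 difference was -0.84 ± 0.05 (adjusted p = 5.63e-06), while the list's median was 0.01. CCNA2, cyclin A2, averaged 40.3 RPKM against 48.4 and 48.3.

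Apoptosis regulators gave 3 genes of 31 (9.68%) apart and lower and 0 higher, beside 6.37% and 4.2% of all genes, while TMM scaling gave 2 lower and 2 higher. Against the mean of #3 and #5, 4 of the 31 (12.9%) were higher, near the 13% of all genes. BCL2L2, an anti-apoptotic relative of BCL2, stood at 10.5, 10.3, 10.8 and 10.6 RPKM in #1 and 17.1 to 22.5 RPKM in the others (log2 difference -0.83 ± 0.05, adjusted p = 2.73e-06). No library overlapped, and shScramble averaged 16.9 RPKM. The BCL2L2 model overlaps that of BCL2L2-PABPN1 on the same strand and those of HOMEZ and PPP1R3E on the other. Reads from these could also enter. BID, a pro-apoptotic relative, and TNFSF10, the death ligand TRAIL, were the others. Among 26 p53 targets, read here in a line known to lack p53, C12orf5 (TIGAR) and ZMAT3 were higher and BTG2 lower. These were 7.69% and 3.85% of the list, beside 4.2% and 6.37% of all genes. After GC correction 4 were higher. BTG2, an anti-proliferative gene, stood at 2.78 and 2.94 RPKM untreated and 14.7 and 13.96 RPKM with cisplatin, below the others in each treatment (7.27 to 24.6 RPKM).

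Growth factor genes gave 5 higher of 37 (13.5%) and 2 lower (5.41%), with a median of 0.03. FGF2, a fibroblast growth factor, averaged 46.4 RPKM against 24.5 in #3, 39.7 in #5 and 47.5 in shScramble. EREG and FGF5, the receptor MET and the stem cell factor KITLG were the other higher members. VEGFC, a growth factor of lymphatic vessels, was lower, at 2.51, 2.44, 2.10 and 2.42 RPKM against 4.07 to 5.68 RPKM (log2 difference -0.80 ± 0.08, adjusted p = 6.45e-05), and so was IGFBP5. Omitting the replicate term left 1 higher gene. In the complement and coagulation list 3 of 20 were apart and higher (THBD and the plasminogen activators PLAT and PLAU) and 3 lower (C1R, C1S and TFPI2). These shares of 15% each stood beside 4.2% and 6.37% of all genes. PLAT averaged 8.595 RPKM against 4.58 and 4.28 and lay at 8.21 in shScramble (log2 difference 0.82 ± 0.08, adjusted p = 7.37e-05). Mesenchymal genes were split evenly, with ZEB1, NT5E and TNC higher and SNAI1, TAGLN and LOX lower, of 26 tested (2 and 1 without the replicate term).

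Interferon-stimulated genes were lower in #1 mainly relative to #5. Of 39 tested, 16 (41%) were lower and 3 (7.69%) higher against the mean of #3 and #5, beside 15.1% and 13% of all genes. The list's median was -0.26 (-0.37 from #5 and -0.06 from #3). Only 4 of the 39 (10.3%) met the rule for standing apart from both lines, all lower, and 1 without the replicate term. They were IFIT3, PARP14, BST2 and HERC5. IFIT3 held 11.9, 10.6, 13.3 and 9.92 RPKM in #1 and 13.7 to 19.8 RPKM in the others (log2 difference -0.51 ± 0.06, adjusted p = 0.000263). In the HLA and antigen presentation list 11 of 23 were lower and 1 higher than the mean, beside 15.1% and 13% of all genes, and 1 was apart, PDCD1LG2, lower. The 11 became 3 without the replicate term, 5 after GC correction, 6 with TMM scaling and 7 with median-ratio scaling.

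Of 9 protein arginine methyltransferases tested, PRMT5 and PRMT3 (22.2%) were apart and lower and 0 higher, beside 6.37% and 4.2% of all genes. Their log2 differences were small, at -0.20 and -0.26. PRMT6 in #1 lay between the other hairpins, with means of 34.0 RPKM in #1, 20.95 in #3 and 40.5 in #5. Its log2 differences were 0.67 from #3 and -0.25 from #5. PRMT5, which makes symmetric marks, averaged 30.4 RPKM against 34.2 and 35.8. Without the replicate term PRMT3 lost the call against the mean of #3 and #5 (limma adjusted p = 0.0608). With TMM scaling 1 gene of this list was apart and lower. Among 16 genes of the small RNA machinery, AGO2, the Argonaute that cuts target transcripts, averaged 15.1 RPKM in #1 against 21.9 in #3, 20.7 in #5 and 10.8 in shScramble. ADAR, the RNA-editing enzyme, was also lower, while TNRC6A, a partner of Argonautes, and XPO5, the exporter of hairpin precursors, were higher (1 gene in each direction without the replicate term). In the main fit these were 12.5% of the small RNA list in each direction. Of 23 HOX genes 3 (13%) were lower and 0 higher (1 lower without the replicate term). Of 33 genes of the respiratory chain 2 were apart, NDUFS1 and COX5B, both lower, and of 40 cytosolic ribosomal proteins 1, RPS23, lower. Integrins and adhesion gave 2 higher and 1 lower of 29, matrix proteases and inhibitors 2 and 1 of 24, and cisplatin transport and drug efflux 0 and 3 of 20. Epithelial genes gave 1 and 1 of 31, Wnt and Notch genes 0 and 2 of 25, AP-1 and immediate early genes 0 and 2 of 28, and NF-kB targets 0 and 1 of 29, where the lower gene was IL6. Metallothioneins (6 tested) and cancer-testis antigens (1 tested) gave 0, as did each of the 4 marker lists.

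**Figure D3:**
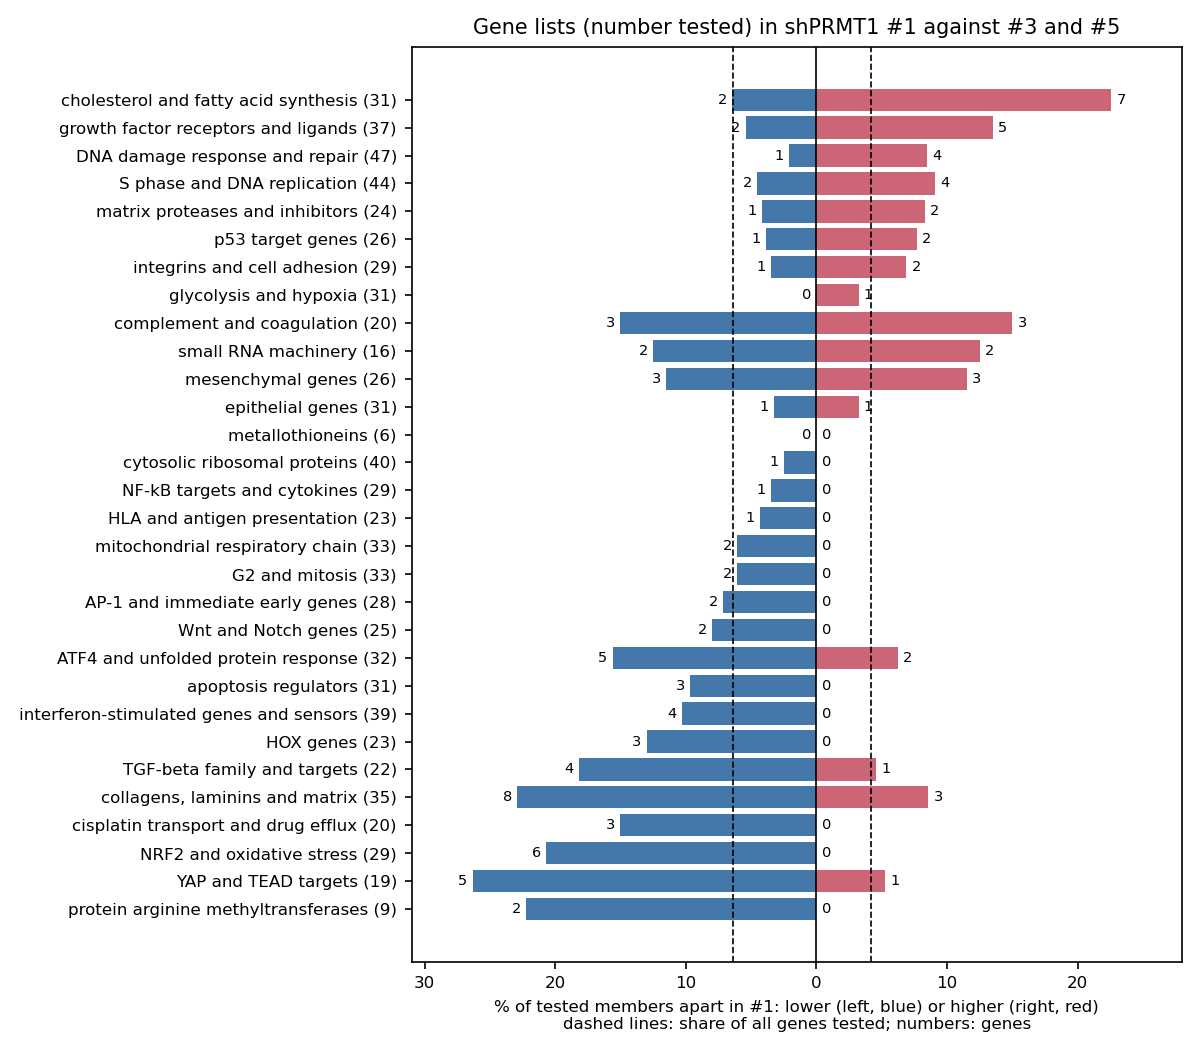
Share of the tested members of each gene list (rows, number tested in brackets) apart in shPRMT1 #1 (x axis, percent), lower to the left and higher to the right, with dashed lines at the shares of all genes, 6.37% and 4.2%. Lipid synthesis reaches 22.6% higher, and YAP targets 26.3% and matrix genes 22.9% lower.

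The difference of #1 was present without and with cisplatin. In untreated cells 2237 genes (12.6%) were higher and 2327 (13.1%) lower than the mean of #3 and #5, and with cisplatin 1436 (8.08%) and 1291 (7.26%). Together this was 4564 genes untreated and 2727 with cisplatin, or 1773 and 672 without the replicate term. Leaving out untreated replicate 1 or 2 of #1 or untreated replicate 1 of #3 left 1559, 1913 and 2863 untreated calls, and leaving out cisplatin replicate 1 or 2 of #5 left 1590 and 1602 cisplatin calls. When the 6 cisplatin libraries were fitted alone, with 2 residual degrees of freedom, limma called 0 genes (smallest adjusted p 0.0538), though 4010 had an unadjusted p under 0.05. The cisplatin calls thus rest on a spread estimated with the untreated libraries.

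No gene passed for a change of the #1 difference between untreated and cisplatin-treated cells (limma, smallest adjusted p 0.0731), and 2317 genes (13%) had an unadjusted p under 0.05. The count was 35 with voom on recovered reads, 81 with all 16 libraries in the fit and 356 after GC correction, of which 25 genes were shared by all of these. Some of the 25 are given here and were chosen after their values were seen. ELOVL6 stood at 2.01 and 1.90 RPKM in untreated #1 cells and at 5.57 to 7.03 RPKM in untreated #3 and #5 cells. With cisplatin it stood at 0.654 and 0.481 RPKM against 0.796 to 0.898 RPKM, and the log2 difference went from -1.32 to -0.25. These cisplatin values lay under 1 RPKM, where adding 1 RPKM before the log2 narrows a difference. Part of this change may come from that. For CLU the difference was -1.58 untreated and -0.76 with cisplatin, for MCM4, a subunit of the replicative helicase, 0.51 and -0.02, and for ITGA2, an integrin chain, -0.71 and 0.54.

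**Figure D4:**
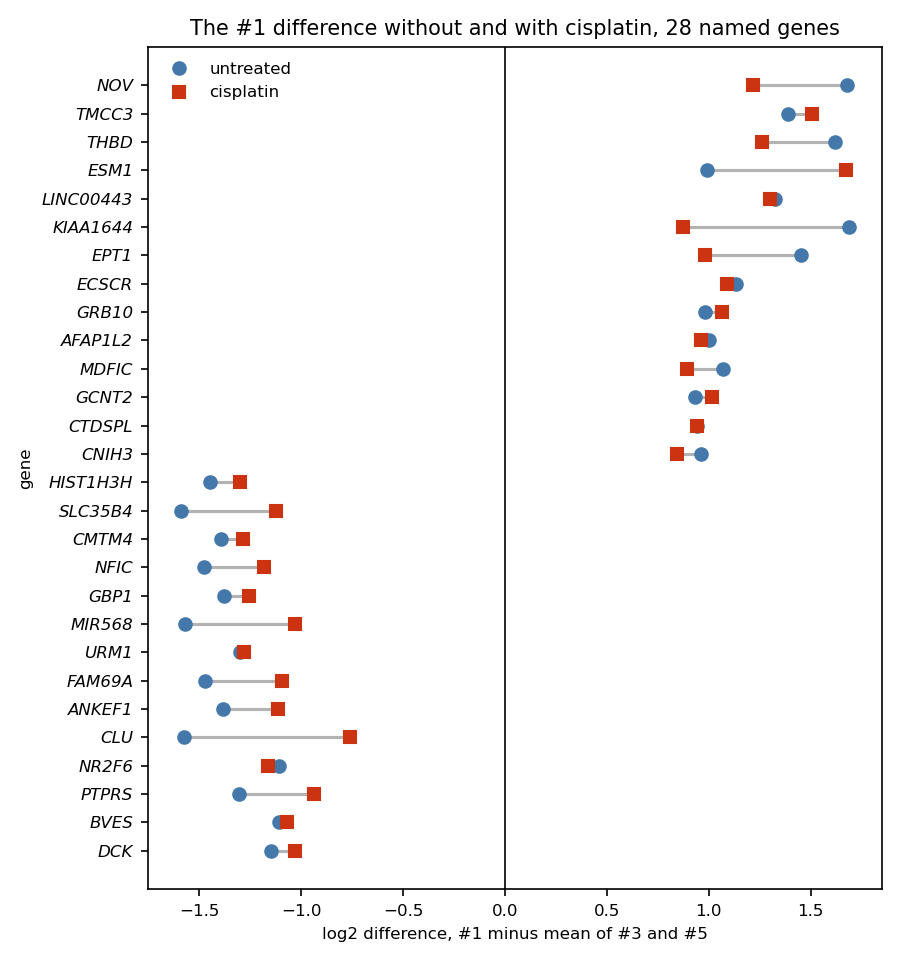
Log2 difference between shPRMT1 #1 and the mean of #3 and #5 (x axis) in untreated (blue circles) and cisplatin-treated cells (red squares) for 28 named genes (rows). Genes were named only where #1 did not overlap the others in either treatment, so both points share a side of 0, and CLU, ESM1 and KIAA1644 show the widest gaps. Untreated ESM1 stood at 1.89 and 1.20 RPKM in #1 and lower in the others, where adding 1 RPKM before the log2 narrows a difference. Its gap therefore does not show a larger ratio with cisplatin.

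Neighbouring genes stood apart together at 2 loci, which were singled out after their values were seen. On chromosome 12 the non-coding RP11-114H23.1 (75956981 to 76377795, minus strand) and, within its span and on the same strand, RP11-114H23.2, RP11-114H23.3 and a SNORA70 copy were all higher in #1. RP11-114H23.3 held 6.04 to 8.75 RPKM in #1 and 0.959 to 3.07 RPKM in the others (log2 difference 1.46, adjusted p = 1.35e-05). Among protein-coding neighbours PHLDA1 was higher (0.17, adjusted p = 0.00395), NAP1L1 (-0.40) and GLIPR1 (-0.30, adjusted p = 0.00435) were lower, and KRR1 was not called (0.16, adjusted p = 0.121). On chromosome 13 LINC00443 (107306263 to 107324511, plus strand) and ATP5G1P5, which lies inside it on the same strand, were both higher. Reads of such overlapping models on 1 strand cannot be separated, so each locus may hold a single signal. Coordinates are those of the deposited table, and the submitters' notes name GRCh37.

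The differences of #1 also moved with base composition. GC content was known for 96.4% of the genes, from GENCODE v29 transcripts. From the lowest to the highest quintile of GC content the median log2 difference of #1 went from 0.04 to -0.15, and the share of genes apart and higher from 6.39% to 0.846%. The share apart and lower stayed between 6.12% and 6.68%. Such a trend was not particular to #1. Over the same quintiles the median of #5 against the other shPRMT1 lines went from -0.014 to 0.138, and that of #3 from -0.002 to 0.024. Replicates 1 and 2 of #1 lay far apart in this respect. GC-rich against GC-poor genes deviated by -0.52 and -0.59 in replicate 1 of untreated and treated #1 cells and by 0.23 and 0.41 in replicate 2, while #3 and #5 ran from -0.34 to -0.02 and from 0.16 to 0.41. After correction for GC content 2427 genes were apart in #1, of which 1703 were among the 1879 without it. Of the 78 named genes that could be corrected, NRARP, a Notch feedback regulator, lost its call against the mean of #3 and #5 (limma adjusted p = 0.406).

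**Figure D5:**
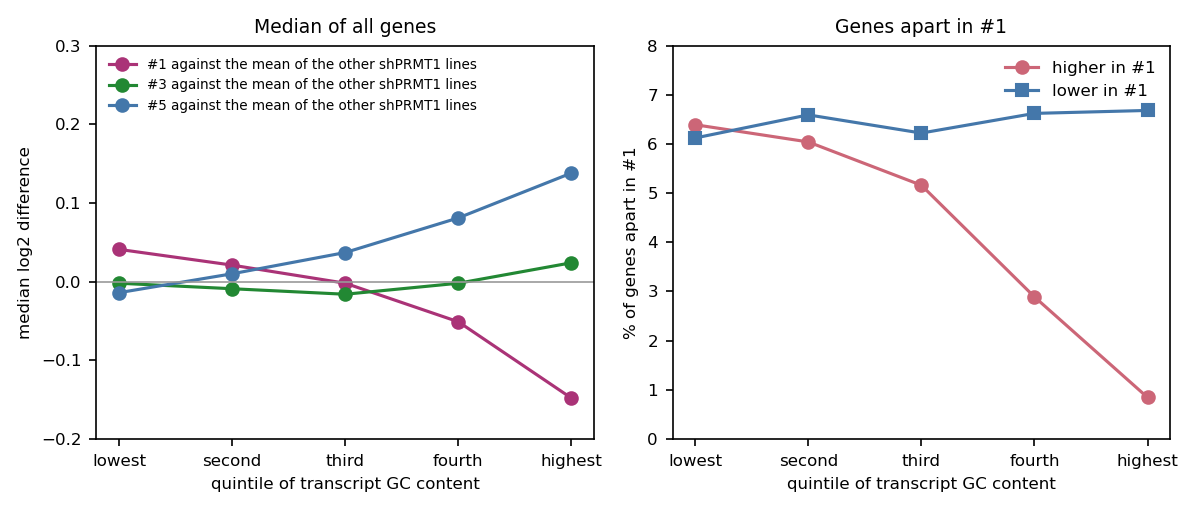
Left, median log2 difference of each line against the other shPRMT1 lines (y axis) by quintile of transcript GC content (x axis). Right, percent of genes apart in #1 by the same quintiles, where the higher share falls from 6.39% to 0.846% and the lower share stays between 6.12% and 6.68%.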

How the data were processed

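RNA was read in 16 libraries of SK-OV-3 cells, prepared with TruSeq RNA v2, per the labels' protocols. The authors deposited 1 table of RPKM values per gene and library. The submitters' processing notes name HISAT2, DESeq2 and the builds GRCh37 and mm9 without roles. No counting tool and no handling of duplicate reads is stated in the sources used here. The RPKM steps gave whole reads for 100% of 40649 genes within 0.01 reads. Library totals were inferred from the same steps as the totals by which the RPKM values were scaled. By these, 3 reads on a 2-kb model equal 0.0935 to 0.122 RPKM.

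Here log2(RPKM + 1) of genes with at least 1 RPKM in 2 of the 12 shPRMT1 libraries (17773) was fitted with limma 3.58.1 in R 4.3.3, with an intensity trend and terms for line, treatment and replicate. A second fit had 6 group means and the replicate. P-values were adjusted over all genes by Benjamini-Hochberg at 0.05. The replicate numbers pair the libraries. Replicate differences correlated between every 2 of the 6 groups (15 pairs, 0.302 to 0.709), so libraries of 1 number deviated together. The labels do not say what libraries of 1 number shared. Replicates of 1 group differed beyond counting noise, with a chi-square per degree of freedom of 5.91 to 40.7.

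Named genes were, in each direction, the 14 largest differences among genes apart in #1 with a proper symbol, 5 RPKM or more in the group with the higher mean and no overlap within either treatment, then up to 2 per list by adjusted p, and PRMT1. The rule, the 31 pathway lists and the 4 marker lists were chosen with earlier results of these data known. On simulated data with 200 changed genes among 17773, 51% of 1.5-fold and 72% of 2-fold changes were called and 26% and 65% met the rule for apart. Of the unchanged genes 2 were called and 0 were apart. The simulated counts were drawn independently, with the same dispersion for every gene and without GC shifts of single libraries. They therefore do not measure how many false calls the real libraries gave. GC correction was a lowess curve per library, added after seeing the data. A few genes that the rule names are not reported here, though counts include them.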

Additional observations from a re-analysis of the deposited data

Results flagged for a closer look

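For 29 genes, the 28 with the largest differences and PRMT1, the 4 #1 libraries and the 8 others were each searched for a library far from the rest, in 58 groups of values. In ANKEF1 the #1 library of cisplatin replicate 1 stood at 5.02 RPKM, above the other 3 at 2.49 to 2.86 RPKM, with a gap of 0.855 of the group's range against a critical value of 0.829. It still lay below the lowest value of the other hairpins, 8.03 RPKM. The critical value flags about 1 in 20 groups whose values come from a single population. Each group here pooled both treatments, and the 8 others also pooled #3 and #5. That rate need not hold for them, so the number of flags was not set against chance.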

How the results depend on the processing

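With 12 alternatives and each of 12 libraries left out in turn, no named gene that was called reversed direction. The call of a named gene here is that against the mean of #3 and #5, not the rule for apart. The balance of higher and lower calls against the mean turned from 2317 and 2676 to 2717 and 2291 with TMM scaling, 2620 and 2446 with median-ratio scaling and 3091 and 2781 with GC correction. Among lists, genes apart went from 4 higher and 2 lower to 0 and 2 for S phase and from 2 and 5 to 2 and 1 for ATF4 without the replicate block, and from 0 and 2 to 2 and 1 for Wnt and Notch genes with GC correction. Without the replicate block the counts were 1343 genes higher and 1473 lower than the mean of #3 and #5, 339 higher and 578 lower apart in #1, 873 apart in #3, 1443 apart in #5, 1773 called untreated and 672 called with cisplatin. All 917 apart in #1 without the block were among the 1879 with it. Of the 81 named genes PRMT3, FZD7 and HOXB7 lost their call against the mean of #3 and #5. Others kept that call but were no longer apart, among them POLA1 of the S phase list and NRARP of the Wnt and Notch list. In the cisplatin libraries alone the counts were 0 higher, 0 lower, 0 and 0 apart in #1 (4010 at an unadjusted p under 0.05), 30 apart in #3 and 153 apart in #5, and 80 of the 81 named genes, all but PRMT1, lost their call. Genes whose #1 difference changed with cisplatin numbered 0 as reported, 18 with a pseudocount of 5, 65 with no filter on low values, 35 with voom, 81 with all 16 libraries and 356 with GC correction, which also raised the cisplatin calls to 4137. Leaving out 1 library gave 1516 to 2410 genes higher, 1591 to 2899 lower, 449 to 874 apart and higher in #1, 717 to 1353 apart and lower, 1082 to 1706 apart in #3, 1837 to 2710 apart in #5, 1559 to 5357 called untreated, 1590 to 2561 called with cisplatin and 0 to 1 whose difference changed. The share of higher genes among those apart, 39.8%, became 48.8% with TMM scaling and 44.5% with median-ratio scaling. Under both, all 81 named genes kept their call, or lack of one, against the mean of #3 and #5. Not all stayed apart, since arginine methyltransferases apart and lower went from 2, PRMT3 and PRMT5, to 1 with TMM scaling. PDCD1LG2 and IL6 lost their call with all 16 libraries, and FZD7, NRARP, IER5 and NR4A2 in the untreated libraries alone. NRARP did so with GC correction and without untreated replicate 1 of #1. The causes of these changes were not tested. Genes under about 1 RPKM rest on few reads, and 0.916% of those with a mean below that were apart in each direction.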
